A study of Rattus norvegicus with 12 samples.

Results

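Chemokine ligands are small secreted proteins that draw leukocytes along a gradient, and 33 of their genes were measured in livers of rats fed 1 of 3 high fat, high sucrose diets. The genes were those whose symbol starts with Ccl or Cxcl and a number, or is Cx3cl1 or Xcl1. Each was read by 1 probe set with no other symbol, so they made up 33 of 14506 named genes, and 33 of 15310 probe sets with exactly 1 gene symbol, out of 29214 probe sets in all. The 12 rats were male, their strain is given as Diet-induced obese Sprague-Dawley, and they were put on the diets at 12 weeks of age and killed 8 weeks later, at 20 weeks. All diets were eaten freely, held 4.6 kcal per gram and took 10% of energy from protein. That protein was casein in the control diet, skim milk powder in the diet called dairy, and casein (7.1% of energy) plus free leucine (2.9%) in the diet called leucine. Added leucine and less casein therefore cannot be told apart, nor can milk protein from the other parts of milk powder. There were 4 livers per diet, numbered 1 to 4, and none came from a lean or chow-fed rat. No label says that the samples are separate animals, and they are read here as 1 sample per rat; p-values measure the spread between these samples.

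Most chemokines fall into the CC and the CXC family, named after the spacing of their first cysteines, and act on receptors of the same name on the target cell. Some are made all the time and place cells in tissues, such as Cxcl12 and Ccl21. Others are made on demand by hepatocytes, Kupffer cells, endothelium and stellate cells when NF-kB or interferon signalling is switched on, such as Cxcl10, Cxcl1 and Ccl2. Values are log2 array signals, so a difference of 1 is a doubling of the signal. Signals of different genes come from different probes, so a level is set only against the median probe set or used to choose genes to name. In whole liver, fewer cells of a type and less RNA per cell cannot be told apart.

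The 12 arrays had similar medians over the 15310 probe sets (5.23 to 5.41), while their SDs ran from 2.07 in dairy replicate 3 and 2.17 in casein replicate 4 to 2.40 in casein replicate 1. All 13 measured hepatocyte markers, albumin among them, lay above the median probe set, as the tissue label says. Of the chemokine genes 18 of 33 had a mean signal below that of the median probe set. For a dim gene a log2 difference can understate a change, and the background level was not measured. No chemokine gene was called between any pair of diets, while Cxcl10 spanned a 99.7-fold range of signal over the 12 livers.

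Cxcl10, which attracts activated T cells and natural killer cells through CXCR3 and is induced by interferon, had log2 signals of 5.22, 5.33, 10.98 and 7.13 in casein replicates 1 to 4. In dairy replicates 1 to 4 it stood at 4.55, 10.32, 7.83 and 11.19. In leucine replicates 1 to 4 it stood at 5.59, 10.20, 11.08 and 7.27. Each diet thus held at least 1 liver above 10 and at least 1 below 6, and the diets overlapped over almost their whole range. Replicate 1 was the lowest liver of every diet. The highest was replicate 3 with casein and with leucine, and replicate 4 with dairy. No liver lay between 7.83 and 10.20, with 7 livers below that gap and 5 above it. The mean was 7.16 ± 2.69 with casein, 8.47 ± 2.98 with dairy and 8.53 ± 2.55 with leucine (SD, n = 4 per diet).

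The difference from casein was 1.31 ± 1.65 with dairy (SE of limma, adjusted p = 0.802, 95% interval -2.28 to 4.90) and 1.37 ± 1.65 with leucine (adjusted p = 0.999, interval -2.22 to 4.96). Leucine and dairy differed by 0.06 ± 1.65 (adjusted p = 0.996, interval -3.53 to 3.65). An exact two-sided permutation test of the means gave p = 0.543, 0.429 and 0.971 for the same pairs, or 0.814, 0.814 and 0.971 adjusted over the 3 pairs. Its smallest possible p with 4 livers against 4 is 0.0286. The intervals reach several doublings either way, so these data bound the diet difference of Cxcl10 only loosely. With single arrays left out the dairy difference was lowest once dairy replicate 4 was dropped (0.404) and highest once dairy replicate 1 was (2.62), and with array quality weights it was 3.53, in each case uncalled.

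**Figure D1:**
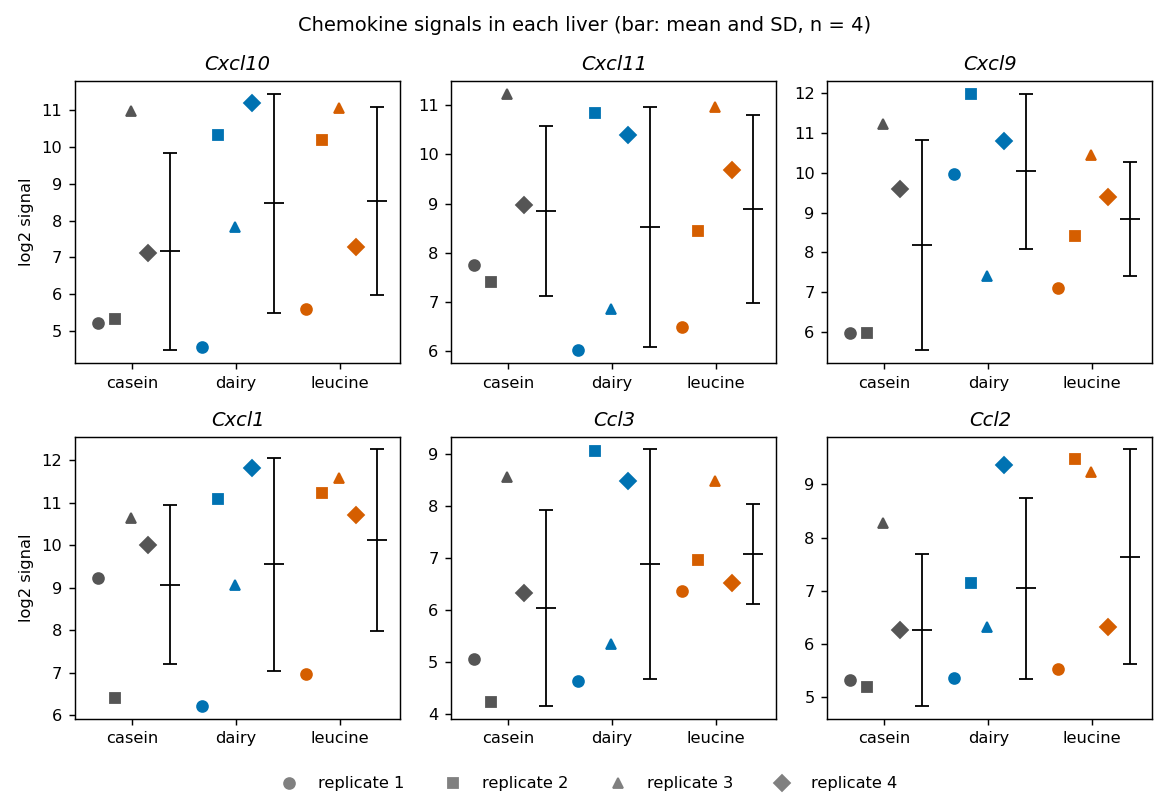
Log2 signal (vertical axis) of 6 chemokine genes in each of the 12 livers, by diet. Symbols mark the replicate number, and the black bar beside them gives the mean and SD of the 4 livers. Cxcl10 runs from 4.55 to 11.19 within the dairy diet alone, and the 3 diets overlap in every panel.

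Measured as the residual SD, the pooled spread between livers of 1 diet, Cxcl10 stood at 2.75. This was the second highest of all 15310 probe sets, behind 2.85, and the median probe set had 0.295. The chemokine genes had a median of 0.454. A residual SD over 1 was found for 8 of the 33 (24.2%), against 2.29% of all probe sets, and a residual SD over 2 for 4 (12.1%), against 0.144%. After Cxcl10 came Cxcl1 (2.18), Cxcl9 (2.07), Cxcl11 (2.05), Ccl3 (1.76), Ccl2 (1.73), Ccl4 (1.54) and Cxcl2 (1.39). At the other end stood Ccl28 (0.133), Ccl22 (0.161) and Ccl25 (0.178), all with mean signals below the median probe set. The spread of Cxcl10 was similar in size in each diet, and leaving out any 1 array kept its residual SD between 2.43 and 2.91.

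**Figure D2:**
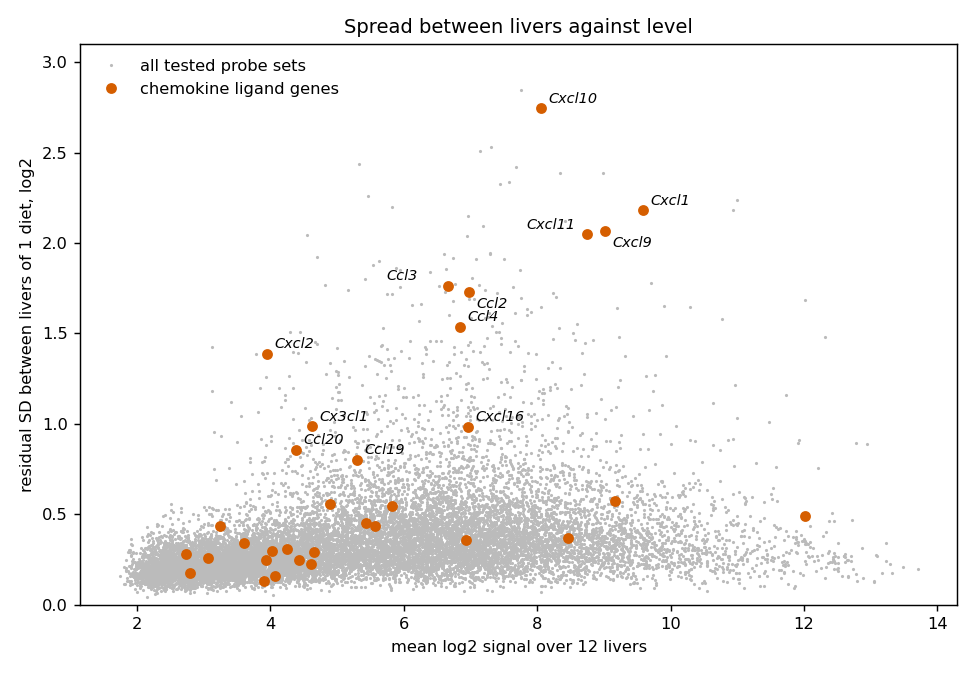
Residual SD between livers of 1 diet (vertical axis, log2) against the mean log2 signal over 12 livers (horizontal axis) for all 15310 tested probe sets in grey and the 33 chemokine genes in orange. Cxcl10 stands at 2.75, with Cxcl1, Cxcl9 and Cxcl11 just above 2 and most other chemokine genes within the grey cloud.

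The 3 ligands of CXCR3 (Cxcl9, Cxcl10 and Cxcl11) are neighbours on the chromosome, with Cxcl10 between the other two in RefSeq's order of protein-coding genes. The 250 bases before the start of these genes and of Cxcl1, the most variable chemokine gene outside CXCR3's ligands, are shown because these promoters belong to the 4 chemokine genes with the largest spread. They are RefSeq sequences of build GRCr8, 5′ to 3′ on the gene's strand, with capitals where a search found a kB-type motif (GGG, any 3 bases, TTCC) or an interferon-type motif (GAAA, any 2 bases, GAAA) on either strand.
Cxcl10 (chr14:15988816-15989065, plus strand): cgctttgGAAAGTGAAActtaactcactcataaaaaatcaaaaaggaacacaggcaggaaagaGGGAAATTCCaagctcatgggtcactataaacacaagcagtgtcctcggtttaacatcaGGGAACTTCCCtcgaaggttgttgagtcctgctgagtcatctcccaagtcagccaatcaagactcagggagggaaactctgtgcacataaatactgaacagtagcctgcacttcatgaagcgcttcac
Cxcl11 (chr14:15973478-15973727, plus strand): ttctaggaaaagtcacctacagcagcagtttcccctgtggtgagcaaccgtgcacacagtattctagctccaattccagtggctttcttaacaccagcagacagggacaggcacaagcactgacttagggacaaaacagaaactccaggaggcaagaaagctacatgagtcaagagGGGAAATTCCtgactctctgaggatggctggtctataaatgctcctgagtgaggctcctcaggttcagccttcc
Cxcl9 (chr14:16006916-16007165, plus strand): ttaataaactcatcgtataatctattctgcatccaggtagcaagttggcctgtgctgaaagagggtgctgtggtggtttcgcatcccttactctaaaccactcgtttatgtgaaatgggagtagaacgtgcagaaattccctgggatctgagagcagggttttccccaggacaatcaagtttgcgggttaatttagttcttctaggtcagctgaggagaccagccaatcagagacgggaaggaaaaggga
Cxcl1 (chr14:17479322-17479571, minus strand): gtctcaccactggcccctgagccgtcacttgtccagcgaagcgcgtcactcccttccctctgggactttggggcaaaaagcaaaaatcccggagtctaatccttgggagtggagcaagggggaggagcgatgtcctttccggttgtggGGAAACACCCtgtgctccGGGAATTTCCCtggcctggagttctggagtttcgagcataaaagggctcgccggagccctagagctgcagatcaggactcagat
In RefSeq the spans of Cxcl10 and Cxcl11 overlap that of the protein-coding gene Art3. In Cxcl10 the interferon-type motif began 243 bases before the start, and kB-type matches began 187, 128 and 127 bases before it. The matches at 128 and 127 overlap on opposite strands and form 1 run of capitals. Cxcl11 had a kB-type match beginning 74 bases before its start, and Cxcl1 had matches at 102, 84 and 83, of which the last 2 again overlap on opposite strands. The Cxcl9 window held neither motif.

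RefSeq promoters were matched for 27 of the 33 genes, and Ccl2, Ccl3, Ccl4, Ccl5, Ccl11 and Cxcl3 had no entry in the table. At least 1 kB-type motif stood in 9 of the 27 windows, against 4.53% of 33469 promoter windows of the same length. Of the 5 matched genes with a residual SD over 1 it stood in 4 (Cxcl10, Cxcl1, Cxcl11 and Cxcl2), and of the other 22 in 5 (Ccl20, Ccl7, Ccl9, Ccl6 and Cxcl6). Ccl2, Ccl3 and Ccl4 also had a residual SD over 1 but no entry, so this split leaves them out. A link between motif and spread was not tested. The interferon-type motif stood in 2 windows (Cxcl10 and Ccl19), against 3.41% of all, and TTCNNNGAA, a STAT-type motif searched on both strands that may overlap the others, in 3 (Cxcl11, Ccl24 and Ccl17), against 7.67%. A match is a run of letters and not a measured binding site.

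Cxcl11, a further interferon-induced CXCR3 ligand, had log2 signals of 7.76, 7.41, 11.23 and 8.98 in casein replicates 1 to 4. With dairy the values were 6.02, 10.84, 6.85 and 10.40, and with leucine 6.49, 8.44, 10.96 and 9.67. The highest liver of each diet was at least 14.1-fold above the lowest, and diet means lay within 0.363 of each other (8.85 ± 1.73, 8.53 ± 2.44 and 8.89 ± 1.90; SD, n = 4 each). Cxcl9, the third ligand of this receptor and a classical target of interferon-gamma, stood at 5.96, 5.97, 11.22 and 9.60 with casein. Its dairy values were 9.97, 11.99, 7.40 and 10.80, and its leucine values 7.10, 8.41, 10.45 and 9.40. Dairy replicate 1, the lowest of its diet for Cxcl10, Cxcl11 and Cxcl1, was not the lowest for Cxcl9. The dairy difference of Cxcl9 from casein was 1.85 ± 1.25 (SE, limma adjusted p = 0.596), and that of leucine 0.65 ± 1.25 (adjusted p = 0.999).

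Among the neutrophil-attracting ligands of CXCR2, Cxcl1 stood at 9.24, 6.42, 10.63 and 10.02 in the casein livers. In the dairy livers it stood at 6.23, 11.09, 9.08 and 11.82, and in the leucine livers at 6.97, 11.22, 11.58 and 10.72. Every diet had 1 liver below 7 and at least 1 above 10.5, and the differences from casein were 0.48 ± 1.32 with dairy and 1.05 ± 1.32 with leucine (SE, adjusted p = 0.915 and 0.999). Cxcl2, a near relative of Cxcl1, stood at 2.09, 2.70, 5.72 and 2.94 with casein, 3.00, 3.86, 2.75 and 5.37 with dairy, and 4.01, 5.28, 6.33 and 3.35 with leucine. The leucine difference of Cxcl2 from casein (1.38 ± 0.84 SE, unadjusted p = 0.125, adjusted p = 0.999) was among the 3 smallest p of the chemokine genes in that comparison. Cxcl3 (2.57 to 3.59) and Cxcl6 (3.66 to 4.45), of the same group, kept low signals in all 12 livers. These genes are close paralogs, and whether their probes read each other was not tested.

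Several CC ligands draw monocytes, macrophages and T cells. Ccl3, made by activated macrophages, stood at 5.06, 4.23, 8.55 and 6.32 with casein, 4.64, 9.05, 5.34 and 8.47 with dairy, and 6.37, 6.95, 8.47 and 6.52 with leucine. The means were 6.04 ± 1.88, 6.88 ± 2.21 and 7.08 ± 0.962 (SD, n = 4 each). Ccl2, the main monocyte attractant, was picked for its spread after its values were seen. Its highest livers were casein replicate 3 (8.28), dairy replicate 4 (9.36) and leucine replicates 2 (9.48) and 3 (9.24), and the lowest liver of each diet lay between 5.19 and 5.53. Ccl4, a partner of Ccl3 picked in the same way, lay between 5.37 and 8.85. Ccl9, a chemokine of rodent macrophages, stood at 12.12, 11.66, 12.02 and 12.35 with casein, 11.54, 12.48, 11.20 and 12.47 with dairy, and 11.39, 12.22, 12.45 and 12.23 with leucine. These values overlapped, with means of 12.04 ± 0.288, 11.93 ± 0.653 and 12.07 ± 0.466 (SD, n = 4 each). Ccl6 (7.80 to 9.03), Ccl5 (6.62 to 7.58), Ccl7 (4.11 to 5.66) and Ccl12 (2.65 to 4.08) had residual SDs from 0.357 to 0.559.

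The most variable genes shared much of their order of livers, and most other chemokine genes did not. Within the 3 diets there are 18 pairs of livers, and Cxcl1 ordered 17 of them as Cxcl10 did. Cxcl2, Ccl2, Ccl3, Ccl4, Ccl19 and Ccl20 ordered 16, and Cxcl9, Cxcl11, Cx3cl1 and Ccl7 ordered 15. At least 16 pairs were reached by 7 of the other 32 chemokine genes (21.9%), against 1.5% of all other probe sets, and the median was 12 against 9 pairs. Cxcl12 ran the opposite way, with 1 of 18 pairs in the order of Cxcl10; it was the only one of the 32 with 2 pairs or fewer, against 1.21% of all other probe sets. These counts describe 12 livers whose Cxcl10 values fall apart at a gap, and the relation was not tested. Within casein, replicate 3 was the highest liver for 17 of the 33 genes and replicate 1 the lowest for 15. Within leucine, replicate 3 was the highest for 20 and replicate 1 the lowest for 17. Dairy was less uniform, with the highest value in replicate 4 for 12 genes, in replicate 3 for 10 and in replicate 2 for 9, and the lowest in replicate 1 for 14.

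**Figure D3:**
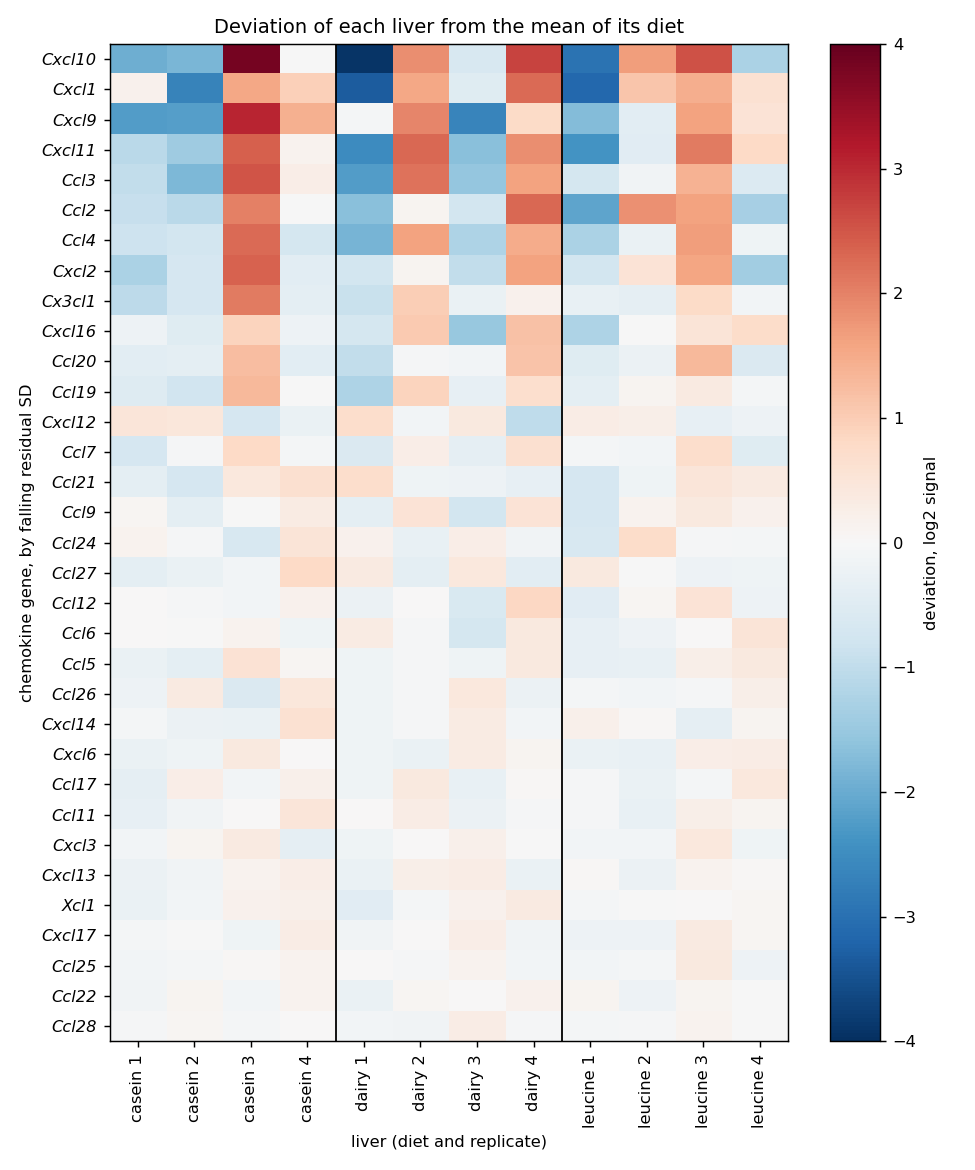
Deviation of each liver from the mean of its diet (colour, log2 signal) for the 33 chemokine genes (rows, by falling residual SD) in the 12 livers (columns). Casein replicate 3, dairy replicates 2 and 4 and leucine replicate 3 are mostly red in the top rows, while Cxcl12 shows the opposite sign in casein replicate 3 and dairy replicate 4.

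Cxcl12, which holds blood progenitors and lymphocytes in tissues through CXCR4, stood at 9.91, 9.88, 8.74 and 9.15 with casein. With dairy it stood at 9.65, 8.82, 9.33 and 7.93, and with leucine at 9.44, 9.37, 8.80 and 8.95. Its lowest value in each diet came from the liver with the highest Cxcl10. The means were 9.42 ± 0.573, 8.93 ± 0.749 and 9.14 ± 0.313 (SD, n = 4 each), and neither test diet differed from casein past the threshold (-0.49 ± 0.36 and -0.28 ± 0.36 SE, adjusted p = 0.637 and 0.999).

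No chemokine gene passed an adjusted p of 0.05 in limma between dairy and casein, where 13 of 15310 probe sets did (0.0849%). At an unadjusted p under 0.05 there were 2 of 33 (6.06%), against 10.9% of all probe sets. Dairy gave higher means than casein for 23 of 33 genes, against 46.9% of all, and the median difference was 0.12, against -0.02 over all probe sets. That median turned to -0.04 without casein replicate 1 and to -0.03 without dairy replicate 4. Between leucine and casein 0 of 33 genes passed, adjusted or unadjusted, against 0% and 3.31% of all probe sets. Here 21 means were higher, against 43.8% of all, and the median difference was 0.07, against -0.03, turning to -0.07 without leucine replicate 3. Between leucine and dairy 0 passed adjusted (0% of all) and 1 unadjusted (6.95% of all), and 18 means were higher with leucine, against 48% of all. A moderated F test over the 3 diets called 0 of 33 (0.0327% of all), and 1 had an unadjusted p under 0.05 (7.76% of all). Both test diets were set against the same 4 casein livers, so their differences from casein are not independent.

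**Figure D4:**
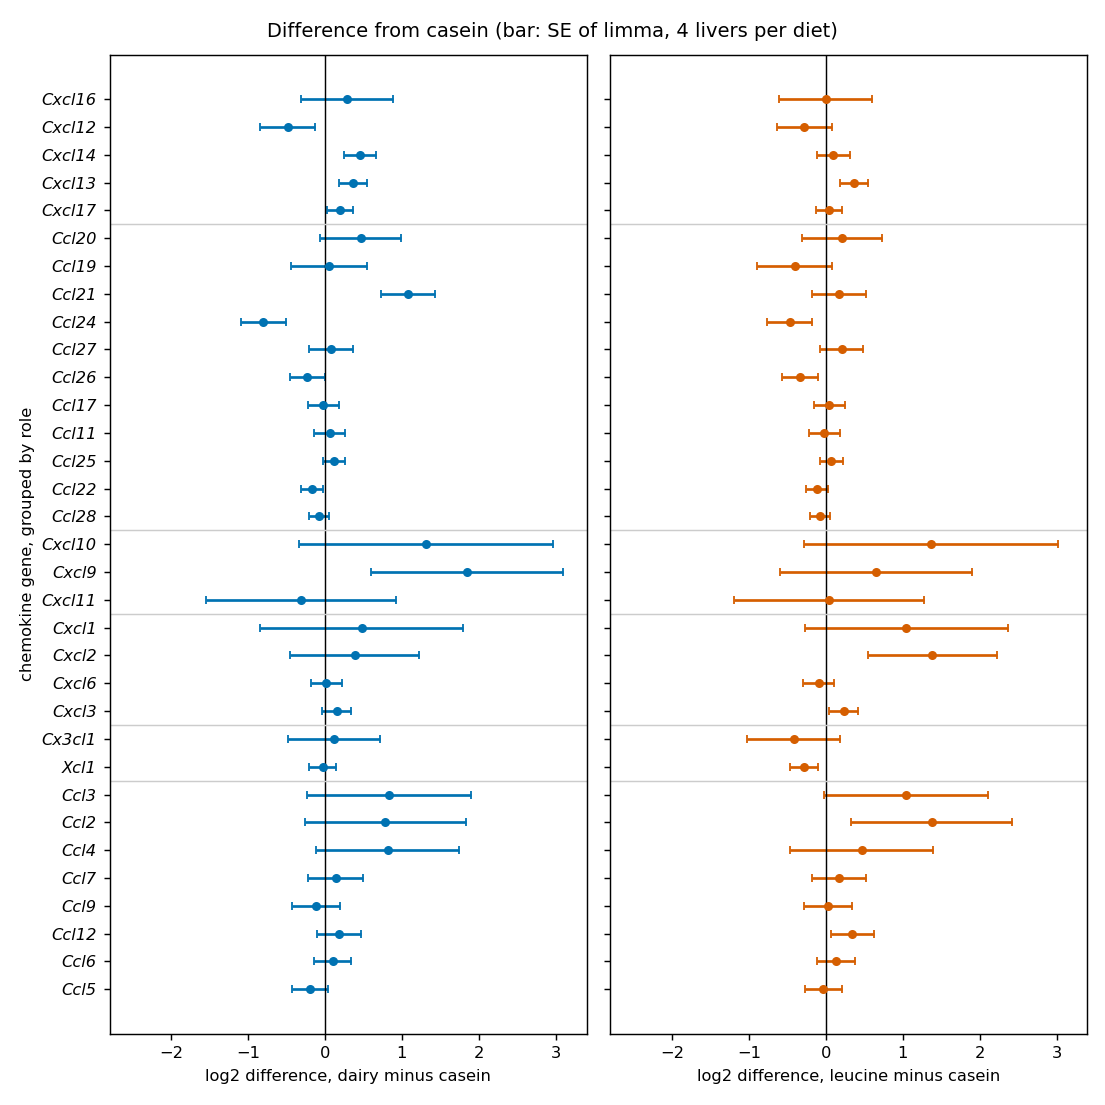
Log2 difference from casein (horizontal axis) with dairy (left) and leucine (right) for the 33 chemokine genes, grouped by role. Bars give the SE of limma with 4 livers per diet; Cxcl10, Cxcl9, Cxcl11 and Cxcl1 have the widest bars, and Ccl21 and Ccl24 with dairy lie farthest from 0 in units of their SE.

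The smallest p between diets belonged to Ccl21, which guides dendritic cells and lymphocytes along lymphatic vessels through CCR7. Its log2 signals were 7.20, 6.33, 6.28 and 6.15 in the dairy livers, 5.03, 4.74, 5.84 and 6.04 in the casein livers, and 4.92, 5.40, 6.06 and 5.95 in the leucine livers. All 4 dairy values lay above all casein and all leucine values, which no other chemokine gene showed in any comparison (4.27% of all probe sets did not overlap between dairy and casein, and 5.09% between leucine and dairy). Dairy replicate 1 stood apart at the top. The dairy difference from casein was 1.08 ± 0.346 (SE, unadjusted p = 0.00853, limma adjusted p = 0.316), or 0.840 without dairy replicate 1. Leucine lay below dairy (-0.91 ± 0.346 SE, unadjusted p = 0.0217, adjusted p = 0.660) and 0.17 ± 0.346 from casein. RefSeq lists Ccl21b as another name of this gene, and near-identical copies are known in rodents, so which copy the probe set reads is uncertain. Ccl19, the other CCR7 ligand, had means of 5.43, 5.48 and 5.02 and no such pattern.

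Ccl24, an attractant of eosinophils through CCR3, leaned the other way, at 5.22, 4.75, 5.33 and 4.91 with dairy and 6.01, 5.82, 5.23 and 6.36 with casein. Casein replicate 3 alone lay within the dairy range. The difference was -0.80 ± 0.292 (SE, unadjusted p = 0.0171, limma adjusted p = 0.365). With leucine it stood at 4.75, 6.13, 5.34 and 5.31, or -0.47 ± 0.292 from casein (adjusted p = 0.999). The other CCR3 ligands, Ccl11 and Ccl26, differed by 0.06 and -0.23 with dairy and kept signals of 2.38 to 4.25.

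With array quality weights, limma called Ccl21 (1.34, adjusted p = 0.0236), Ccl24 (-0.96, adjusted p = 0.0409) and Cxcl9 (4.30, adjusted p = 0.0277) between dairy and casein. This is 3 of 33 genes, against 7.72% of all probe sets called in that fit. It gave weights of 0.293 to casein replicate 4 and 0.296 to dairy replicate 3, the arrays of narrowest spread, and 2.83 to dairy replicate 2. Leaving those 2 narrow-spread arrays out, unweighted, called 0 chemokine genes (1.07% of all probe sets).

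Of the remaining CXC ligands, Cxcl13, which gathers B cells through CXCR5, had 3.46, 3.54, 3.84 and 3.95 with casein. It stood at 3.80, 4.30, 4.37 and 3.79 with dairy and 4.10, 3.82, 4.22 and 4.12 with leucine. It was 0.37 above casein in both diets (0.37 ± 0.181 SE each, unadjusted p = 0.0636 and 0.0620, adjusted p = 0.478 and 0.999), with overlapping values. Cxcl14, a ligand found in many epithelia, stood at 3.99, 3.83, 3.79 and 4.68 with casein, 4.35, 4.49, 4.85 and 4.42 with dairy, and 4.39, 4.20, 3.81 and 4.28 with leucine. Casein replicate 4 alone of its diet lay within the dairy range. The means were 4.07 ± 0.411 with casein, 4.53 ± 0.223 with dairy and 4.17 ± 0.252 with leucine (SD, n = 4 each). Its dairy difference of 0.46 ± 0.211 had an adjusted p = 0.459. The membrane-bound CXCR6 ligand Cxcl16 ranged from 5.64 to 8.33 with a residual SD of 0.985, and its RefSeq span overlaps that of Zmynd15. Cxcl17 had diet means of 4.53, 4.73 and 4.58.

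**Figure D5:**
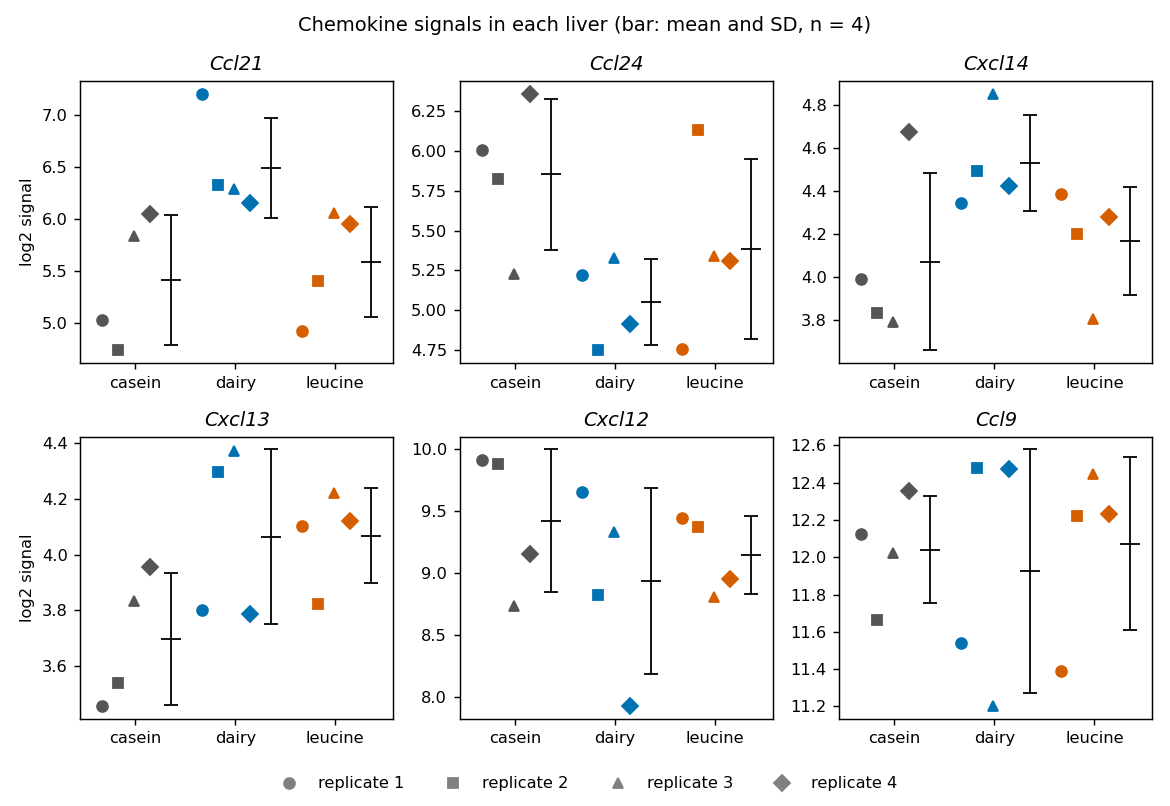
Log2 signal (vertical axis) of 6 further chemokine genes in each of the 12 livers, by diet, with the replicate number as symbol and a black bar for the mean and SD of the 4 livers. The dairy values of Ccl21 (6.15 to 7.20) lie above all casein and leucine values, and the other panels overlap.

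The other members had small differences and mostly dim signals. Fractalkine (Cx3cl1), an adhesive ligand of CX3CR1, reached 6.82 in casein replicate 3 and lay between 3.69 and 5.84 elsewhere. Xcl1, made by T and natural killer cells, stood at 4.26, 4.41, 4.70 and 4.74 with casein, 4.04, 4.43, 4.68 and 4.85 with dairy, and 4.16, 4.24, 4.28 and 4.32 with leucine. The leucine livers lay within the dairy range, and leucine against dairy stood at -0.25 ± 0.181 (SE, limma unadjusted p = 0.194, adjusted p = 0.773). Ccl20, the only known chemokine ligand of CCR6, reached 5.39, 5.76 and 5.68 in the highest liver of the casein, dairy and leucine diets and lay between 3.65 and 4.57 elsewhere. The CCR4 ligands Ccl17 (4.30 to 5.10) and Ccl22 (3.73 to 4.29) and the mucosal ligands Ccl25 (2.60 to 3.20) and Ccl28 (3.74 to 4.16) had residual SDs of 0.133 to 0.290. Ccl27, a skin ligand, ranged from 5.08 to 6.27 with a residual SD of 0.436. The RefSeq span of Ccl27 overlaps that of Il11ra1.

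Receptors were dim. Of 23 receptor genes in a list of chemokine receptors 19 were measured, 18 below the median probe set, and none was called in any comparison (lowest adjusted p = 0.514). Cxcr2, the neutrophil receptor of Cxcl1, and Ccr1, a receptor of Ccl3, ordered 17 of 18 pairs of livers as Cxcl10 did. Cxcr2 ranged from 2.95 in casein replicate 1 to 6.43 in casein replicate 3. Cxcr3, the receptor of Cxcl10 itself, stayed between 3.82 and 4.27 and ordered 4 of 18, with dairy -0.22 ± 0.119 from casein (adjusted p = 0.514). Ackr3, a scavenger of Cxcl12, ordered 16. Cxcr2, Ccr1 and Ackr3 were the only 3 of the 19 with at least 16 pairs, against 1.5% of all probe sets other than Cxcl10. Among the rest, Cxcr5 ordered 15, Ccr2 13, Ccr3 and Ccr7 10 each, Cxcr4 8 and Cxcr1 6. The smallest unadjusted p of the list in limma were 0.0640 for Xcr1 (leucine against casein) and 0.0730 for Cxcr6 (leucine against dairy).

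Of cytokines and receptors that act upstream of chemokines, 17 of 18 were measured and 0 called. Tlr4 (-0.62 ± 0.278 SE, leucine against casein, unadjusted p = 0.0461, adjusted p = 0.999) and Il1a (1.44 ± 0.658, leucine against dairy, unadjusted p = 0.0489, adjusted p = 0.715) had the smallest p. The cytokines Il6, Tnf and Il1b, picked after their values were seen, ordered 18, 17 and 16 of the 18 pairs as Cxcl10 did. Il1a and Il18 of the same list ordered 13 and 10, and the interferon genes Ifng and Ifnb1 10 and 9. Ifng and Ifnb1 had mean signals of 2.67 and 2.98, and Il6 3.27, against 5.33 for the median probe set. Whether signals this dim order livers beyond noise was not tested. Of 16 measured NF-kB and interferon transcription factors and their inhibitors, 7 reached at least 16 pairs, against 1.5% of all probe sets other than Cxcl10. A residual SD over 1 was found for 8, against 2.29% of all, and 0 were called. Nfkbia, the NF-kB inhibitor that NF-kB itself induces, was picked after its value was seen and ordered all 18. Irf9, Stat2 and Irf3 of the same list ordered 13, 12 and 4. A link of these genes to the spread of Cxcl10 was not tested. Irf7 (-1.41 ± 0.727, leucine against dairy, adjusted p = 0.735) and Irf9 (-0.63 ± 0.297, leucine against casein, adjusted p = 0.999) had the smallest p of that list. Ligand genes of the family under other names (Pf4, Ppbp, Cklf and Mif) ordered 7 to 14 pairs.

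Across all other genes, the 8 probe sets whose deviations from the diet means were most like those of Cxcl10 (Pearson r of 0.940 to 0.958 over 12 livers, a description used for choosing them among probe sets with a residual SD over the median) were Mxd1, Rnd1, Zc3h12a, Pim1, Cdc42ep2, Gadd45b, Junb and Vcam1. Rnd1, a small GTPase, stood at 5.06, 4.17, 9.64 and 5.52 with casein, 4.45, 9.45, 7.19 and 10.39 with dairy, and 4.49, 8.60, 10.48 and 8.35 with leucine. Zc3h12a degrades mRNAs of cytokines, and Vcam1 is an adhesion molecule for leukocytes. The 8 genes ordered 16 to 18 pairs as Cxcl10 did, a count that largely follows from how they were chosen. None was called between diets by limma (lowest adjusted p = 0.632).

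Marker lists of other liver cells were read in the same livers. Of 11 measured neutrophil markers 6 ordered at least 16 pairs as Cxcl10 did, and the log2 of their summed signal ran from 8.03 to 9.65 with casein, 8.48 to 10.47 with dairy and 7.86 to 9.96 with leucine. S100a9, a main protein of neutrophils, ordered 17 and the granule gene Mpo 7. Below the median probe set lay 6 of the 11, Mpo and 4 of those with at least 16 pairs among them. Of 14 lymphocyte markers 2 reached 16 pairs (Gzmb with 18 and Nkg7 with 16), 12 lay below the median probe set, and their sum ran from 8.40 to 9.19, 8.56 to 9.67 and 8.33 to 9.03. Of 12 Kupffer cell and macrophage markers 0 reached 16 pairs, and they ran from 15 for Marco to 3 for Clec4f. The sum of these markers ran from 11.26 to 11.60, 10.86 to 11.92 and 11.24 to 12.05. At least 16 pairs were reached by 1 of 11 stellate cell markers (Dcn), and by 0 endothelial, cholangiocyte, erythroid and hepatocyte markers. The share among all probe sets other than Cxcl10 was 1.5%. The stellate marker Lrat (2 pairs), the endothelial Kdr (1) and the hepatocyte Ahsg (1) ran the opposite way. Of all other probe sets 1.21% had 2 pairs or fewer. The sum of the 13 hepatocyte markers moved little, from 16.41 to 16.67, 16.11 to 16.52 and 16.35 to 16.54. The brightest genes, such as albumin (mean 13.7), weigh most in this sum. Over the 12 livers albumin ran from 13.5 to 14.1, while Cyp2e1 ran from 10.6 to 12.6 and Ass1 from 10.9 to 12.7. As sums, lymphocyte markers ordered 16 of the 18 pairs as Cxcl10 did, neutrophil markers 15 and Kupffer cell and macrophage markers 13. Bright genes weigh most in a sum, and the brightest lymphocyte marker was Gzmb (mean 6.99), which ordered 18. The T and B cell markers Cd3g, Cd3e, Cd4 and Cd79b ordered 14, 9, 6 and 4. Sums of stellate, cholangiocyte and erythroid markers ordered 12 each, and those of endothelial and hepatocyte markers 6 each. No marker gene of any list was called between diets by limma (lowest adjusted p = 0.176). At an unadjusted p under 0.05, 10 of the 80 markers differed between dairy and casein (12.5%, against 10.9% of all probe sets). The hepatocyte markers Ass1, Cps1, Cyp2e1 and Ahsg, with Cd163 and Epcam, were on the lower side with dairy, and Ncf1, Cdh5, Des and Hbb on the higher side. Ncf1, a subunit of the phagocyte oxidase, differed by 1.02 ± 0.404 (SE, unadjusted p = 0.0264, limma adjusted p = 0.399). Between leucine and casein there were 4 (5%, against 3.31%), all on the higher side with leucine, namely Hbb, Hbb-b1, Cdh5 and Des. Between leucine and dairy there were 8 (10%, against 6.95%), with Cyp2e1, Ass1, Vsig4, Clec4f and Fcgr2b higher and Ncf1, Col1a1 and Pdgfrb lower with leucine. An array gives no probe set a value of 0, and the part of these cells in the spread of the chemokine genes was not tested.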

How the data were processed

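RNA of 12 rat livers was hybridised, 1 sample to an array, to the Rat Gene 1.0 ST chip of Affymetrix after Trizol extraction and whole transcript biotin labelling per the labels' protocols. The deposited values are log2 signals, 1 per probe set and array, and the submitters' processing notes name Affymetrix Expression Console as the tool. Which version, summary method, normalization or build was used is not given in the sources used here. No normalization was added. Gene symbols came from GEO's platform annotation, and RefSeq supplied promoters and gene order (build GRCr8).

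Differences were tested with limma (version 3.58.1, R 4.3.3), by lmFit with a mean for each of 3 diets over 12 arrays, then eBayes (9 residual and 3.45 prior degrees of freedom), two-sided, adjusted by Benjamini-Hochberg over 15310 probe sets with a threshold of 0.05. The limma fit was tested on simulated data. Genes were named for the 5 largest residual SDs, the 4 highest means and the 3 smallest p of each comparison, with up to 3 per other list and 8 most like Cxcl10. Members outside this rule are described after their values were seen, mostly by range, so that all 33 are accounted for. Members and lists were chosen with earlier results of these data known. Lists of genes used 1 probe set per gene, the one with the highest mean. No 2 arrays held identical values. Same-numbered samples were not paired. Their deviations from the diet means correlated between -0.505 and 0.590 over 12 pairs, of which 7 lay above 0.1. The pairs of replicate 1 gave 0.502, 0.375 and 0.590. Casein with leucine gave 0.375, 0.380, 0.532 and 0.208 for replicates 1 to 4. Dairy replicates 2 and 3 gave values below 0 with both other diets. Whether the replicate number stands for something the samples share was not tested. Alternatives were quantile normalization, median centring, all probe sets, a filter on dim probe sets, trend and robust, array quality weights, 8 arrays only, a replicate block, narrow-spread arrays left out, and single arrays left out. One grouping of the members by receptor is not reported here.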

Additional observations from a re-analysis of the deposited data

Results flagged for a closer look

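Of 99 sets of 4 livers (33 genes in 3 diets), 4 held a value far from the other 3, where chance flags about 1 in 20. Ccl20 stood at 5.39 in casein replicate 3, with the next liver at 3.76. Ccl4 stood at 8.70 in the same liver, with the next at 5.72. Ccl21 reached 7.20 in dairy replicate 1, with the next at 6.33. Cxcl3 reached 3.59 in leucine replicate 3, with the next at 3.05.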

How the results depend on the processing

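No setting other than array quality weights called a chemokine gene. With weights 3 were called between dairy and casein, where that fit called 7.72% of all probe sets. Unadjusted p under 0.05 in the weighted limma fit were reached by 10 genes in dairy against casein. They were reached by 2 in leucine against casein and 3 in leucine against dairy. Leucine against casein had 1 such gene after quantile normalization, median centring, with 8 arrays only and without the narrow-spread arrays. The share of all probe sets at an unadjusted p was not counted in these fits. These unadjusted counts are therefore not read as a result about the chemokine genes. Signs are listed only for the chemokine genes named by the rule, and those of other members may also have turned. With weights they turned for leucine against dairy in Ccl3 (-0.969), Ccl9 (-0.176), Cxcl1 (-0.227), Cxcl10 (-0.921), Cxcl11 (-0.863) and Cxcl13 (-0.0383). For dairy against casein they turned in Ccl9 (0.364), Cxcl11 (1.73) and Xcl1 (0.0850). Without the narrow-spread arrays they turned in Ccl3 (-0.307), Ccl9 (-0.0931), Cxcl10 (-0.156) and Cxcl11 (-0.195) for leucine against dairy and in Ccl9 (0.229) and Cxcl11 (0.287) for dairy against casein. Quantile normalization turned Cxcl10 for leucine against dairy (-0.0533), and centring turned Xcl1 for dairy against casein (0.00386). The residual SD of Cxcl10 was 2.22 with the replicate block and 3.1 without the narrow-spread arrays. With the replicate number as a block 0 genes were called, the Cxcl10 differences stayed at 1.31 and 1.37 from casein, and 2 of 12 arrays correlated best with their own number. The cause of these shifts was not tested.

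Leaving out 1 array at a time gave 0 calls. Genes at an unadjusted p under 0.05 in limma numbered 2 to 4 for dairy against casein. They numbered 0 to 3 for leucine against casein and 0 to 2 for leucine against dairy. The matching shares of all probe sets were not counted. The Cxcl10 differences ran from 0.404 to 2.62, 0.521 to 2.64 and -1.25 to 1.04, and its residual SD from 2.43 to 2.91. Among the chemokine genes named by the rule, ranges that crossed 0 were as follows. The other chemokine genes are not listed, and their signs may also have turned. For leucine against casein they were -0.0539 to 0.393 for Ccl21, -0.0943 to 0.259 for Ccl9, -0.645 to 0.846 for Cxcl11, -0.0883 to 1.66 for Cxcl9. For leucine against dairy they were -0.543 to 0.928 for Ccl3, -0.093 to 0.375 for Ccl9, -0.538 to 1.62 for Cxcl1, -1.25 to 1.04 for Cxcl10, -0.472 to 1.16 for Cxcl11, -0.126 to 0.446 for Cxcl12, -0.0896 to 0.105 for Cxcl13. For dairy against casein they were -0.301 to 0.125 for Ccl9, -0.411 to 1.58 for Cxcl1, -1.09 to 0.518 for Cxcl11, -0.157 to 1.17 for Cxcl2, -0.148 to 0.122 for Xcl1. The median difference over the 33 genes also crossed 0, at -0.041 to 0.275 for dairy against casein, -0.073 to 0.203 for leucine against casein and -0.159 to 0.085 for leucine against dairy. With 4 arrays per diet and 18 of 33 genes below the median probe set, small differences of dim genes could not be resolved.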
